A study of Pimephales promelas with 15 samples.

Results

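A set of 138 array probes, of 15208 non-control probes in all, was well above background in all 3 control livers of male fathead minnows and in none of 4 livers taken after exposure to treated wastewater. The fathead minnow (Pimephales promelas), a small North American freshwater species, is a standard test animal for water pollutants. The set was chosen by that detection flag of the scanner software on the control and wastewater arrays, so the difference between these groups in the flag and in the signal is a description and was not tested. The opposite pattern, well above background on all wastewater arrays and on no control array, was met by 1 probe.

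Livers of 15 mature males were each hybridised to an Agilent array of their own with the dye Cy3, and no ages are given in the labels. All fish were held for 48 h, unfed, in 40 L aquaria with 25 L of water, in 4 aquaria of 4 fish per water. Control fish (n = 3) were kept in dechlorinated tap water that had passed a carbon filter, stormwater fish (n = 4) in water from a lake, streamwater fish (n = 4) in surface water taken downstream of a treatment plant for wastewater, and wastewater fish (n = 4) in plant effluent of the kind spread on landscaping. The waters were whole samples of 1 collection at each site. The p-values measure the spread between livers within a water, and not between collections of it. Which aquarium a liver came from is not labelled, so the part of the aquaria in that spread is unknown. The small number of arrays limits all precision here.

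Liver carries out much of the metabolism of foreign compounds in fish, makes most plasma proteins, and in males exposed to oestrogens can make egg yolk precursor proteins. Water from sewage treatment can hold compounds that act on each of these functions. A microarray probe reports a transcript only when its spot stands out from background fluorescence, so a probe near that limit can be called on one array and not on another at similar levels of RNA. In whole liver, fewer cells of a type and less RNA per cell cannot be told apart.

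No gene names stand beside the probes in the files. None of the members (0 of 138) matched the gene table of the fathead minnow assembly fPimPro1.hap1.1, and 0 of all 15208 probes did, so probes are given by their identifiers, no gene function or cell type marker could be assigned, and the labelled tissue could not be checked against marker genes. Of the members, 95 (68.8%) carry contig numbers as sequence names, against 78.0% of all probes. The other 43 (31.2%) carry sequence numbers, against 21.8% of all probes.

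Stormwater replicate 2 and streamwater replicate 4 stood apart from the rest before any comparison was made. Pearson's r across all probes tested, whose values are not independent of one another, was 0.946 for this pair, 0.722 to 0.843 between the pair and the remaining 13 arrays, and 0.876 to 0.963 among those 13. Between 58.5% and 77.1% of all probes were well above background per array. The highest share was that of stormwater replicate 2, and the lowest that of wastewater replicate 4.

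The members were not without signal after wastewater. The scanner software gives a second, weaker flag to spots that are positive and significant against background, and this flag was set for 127, 103, 112 and 117 of the 138 members on wastewater arrays 1 to 4. It was set on all 4 wastewater arrays for 75 members, on 3 for 43, on 2 for 11 and on 1 for 8. The only member without it on any wastewater array was UF_Ppr_AF_115147. The members are therefore described here as not well above background after wastewater, and not as absent.

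**Figure D1:**
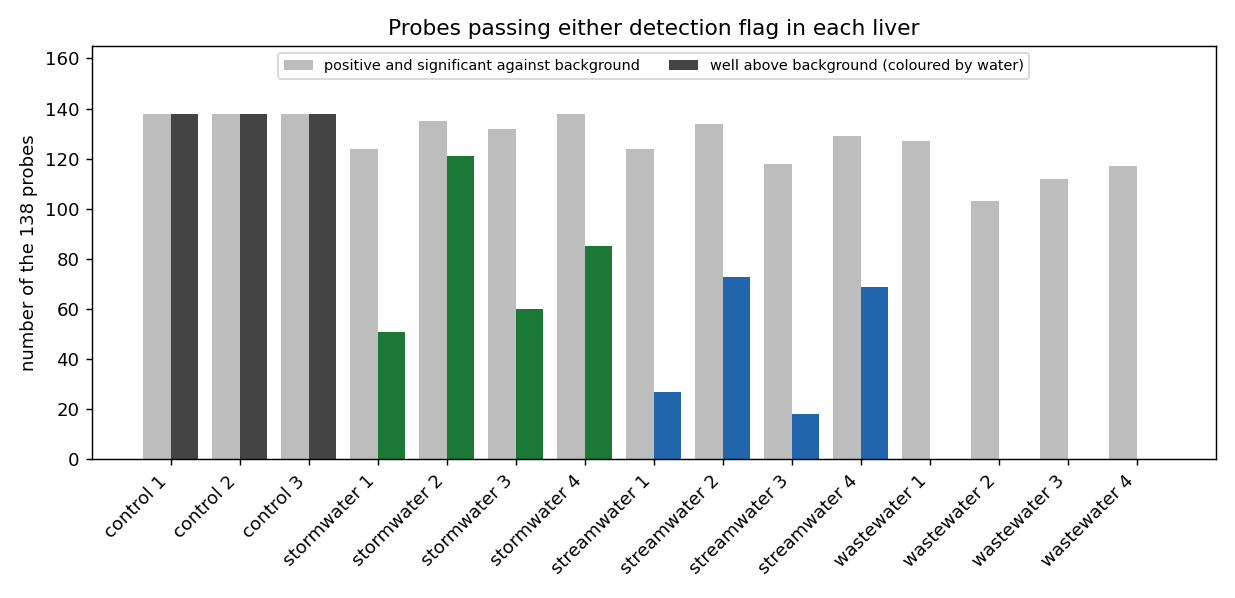
Number of the 138 probes (vertical axis) that passed each detection flag in each liver (horizontal axis). Grey bars count spots that were positive and significant against background, and coloured bars count spots that were well above background. The wastewater livers have no coloured bar, because of the choice of probes, while their grey bars stand between 103 and 127.

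The rule fixed the counts of detected members at 138 in every control and 0 in every wastewater liver, so the count in any other liver must lie between them. After stormwater 51, 121, 60 and 85 of the 138 members were well above background in replicates 1 to 4. After streamwater 27, 73, 18 and 69 members were. Counts ranged widely within both waters and their ranges overlapped. None of the members (0) was well above background on all 8 of these arrays, 9 were on 7 of them, and 4 were on none, with 24 to 29 members each on 2, 3 or 4 of the arrays. A further 8 members were detected in stormwater replicate 2 and in no other stormwater or streamwater liver.

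More members were detected on more stormwater than streamwater arrays (88) than on fewer (12), and 38 were detected on equally many. The same held for all tested probes, of which 22.2% were detected on more stormwater arrays and 4.79% on fewer. Of the 4470 tested probes that were not detected on every array, 57.7% and 12.5% were. Without stormwater replicate 2 and streamwater replicate 4 the members' counts were 73 and 17. Only UF_Ppr_AF_103666 and UF_Ppr_AF_115682 were detected on all 4 stormwater arrays and on no streamwater array, and 0 members showed the reverse.

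The limit for being well above background was set array by array. On every array it was a single value of the background-subtracted signal, 5 times the additive error (5.01 times at most) that the scanner software had estimated for that array. In intensity units it was 155, 88.0 and 83.7 in control replicates 1 to 3. It was 155, 124, 102 and 101 in stormwater, 172, 187, 120 and 126 in streamwater, and 186, 136, 123 and 131 in wastewater replicates 1 to 4. Control replicates 2 and 3 had the lowest limits of the 15 arrays, while control replicate 1 lay within the range of the wastewater arrays.

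With 1 limit for all 15 arrays, few of the members kept the pattern. At the highest limit of any array (187 intensity units) 25 probes met the rule, 8 of them members. At the median limit (126) 46 probes did, 28 of them members, and at the lowest (83.7) 50 probes did, 13 of them members. With limits set relative to the 75th percentile of each array's signal, 25, 36 and 60 probes met the rule at the highest, median and lowest limit, of which 10, 33 and 7 were members. The number of probes with the reverse pattern ranged from 1 to 4 under these 6 limits.

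**Figure D2:**
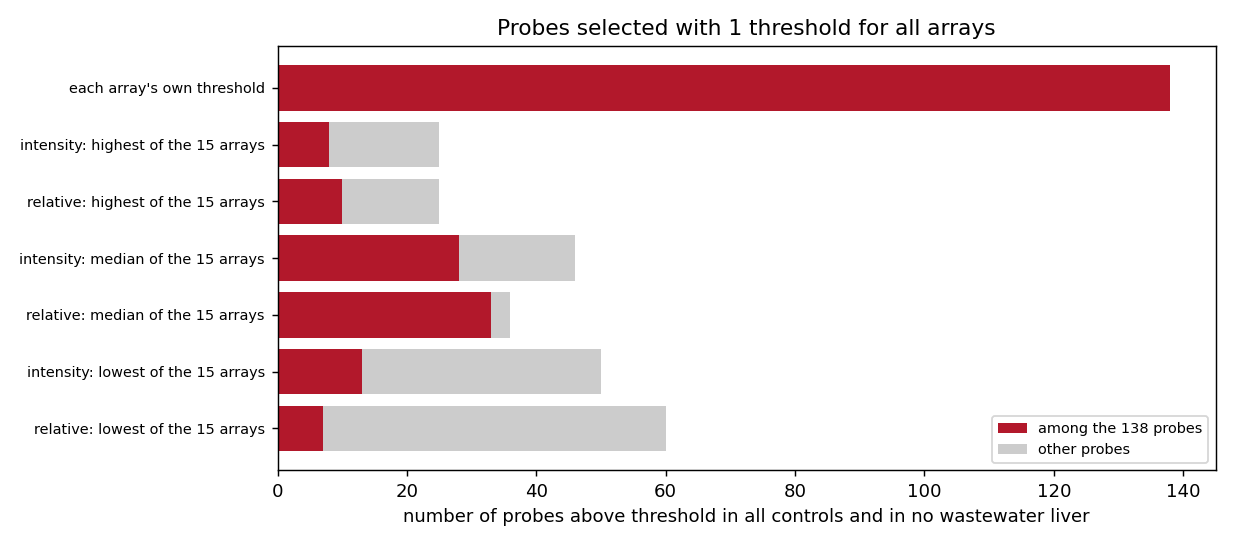
Number of probes (horizontal axis) above the limit in all 3 controls and below it in all 4 wastewater livers, for each array's own limit and for 6 limits common to all arrays (vertical axis). "Intensity" limits are in background-subtracted intensity units and "relative" limits are on a log2 scale against the 75th percentile of the array. Red marks the 138 probes described here, of which 7 to 33 met the rule under a common limit, and grey marks other probes.

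Most members lay close to the limit on at least one side. The dimmest control spot was within 1.25 times the limit for 83 members, the brightest wastewater spot was over 0.8 of the limit for 81, and 114 members met one or both. The dimmest control spot, relative to its limit, was that of control replicate 1 for 73 of the members. Just inside the rule, UF_Ppr_AF_117936 and UF_Ppr_AF_118563 had a control spot at 1.00 times the limit and UF_Ppr_AF_107114 one at 1.01 times. The brightest wastewater spots of UF_Ppr_AF_113834, UF_Ppr_AF_114491 and UF_Ppr_AF_104836 were at 0.998, 0.997 and 0.995 of the limit. Just outside it, UF_Ppr_AF_110123 and UF_Ppr_AF_115171 exceeded the limit on 1 wastewater array by a factor of 1.00, and UF_Ppr_AM_119162 missed it on 1 control array at 0.998. In all, 498 probes missed the rule by 1 control array and 240 by 1 wastewater array.

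Levels are given below as log2 of the processed signal less log2 of the array's own 75th percentile. The median level of the 138 members was -3.48, -3.87 and -3.72 in control replicates 1 to 3. It was -4.52, -3.98, -4.63 and -4.24 in stormwater, -3.94, -3.71, -4.48 and -4.05 in streamwater, and -4.24, -4.71, -4.78 and -4.56 in wastewater replicates 1 to 4. All wastewater medians lay below all control medians, and the stormwater and streamwater medians overlapped each other and the wastewater medians.

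Levels at the lower end of these ranges are not measurements of amount. On spots without the weaker flag the processed signal did not follow the background-subtracted signal, with r of -0.18 to 0.04 per array across 1440 to 3476 such probes, and it stayed within a narrow band near the bottom of each array's range. Such spots made up 11, 35, 26 and 21 of the members in wastewater replicates 1 to 4, at most 20 in any stormwater or streamwater liver, and 0 in the controls. Levels within that band have no order.

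**Figure D3:**
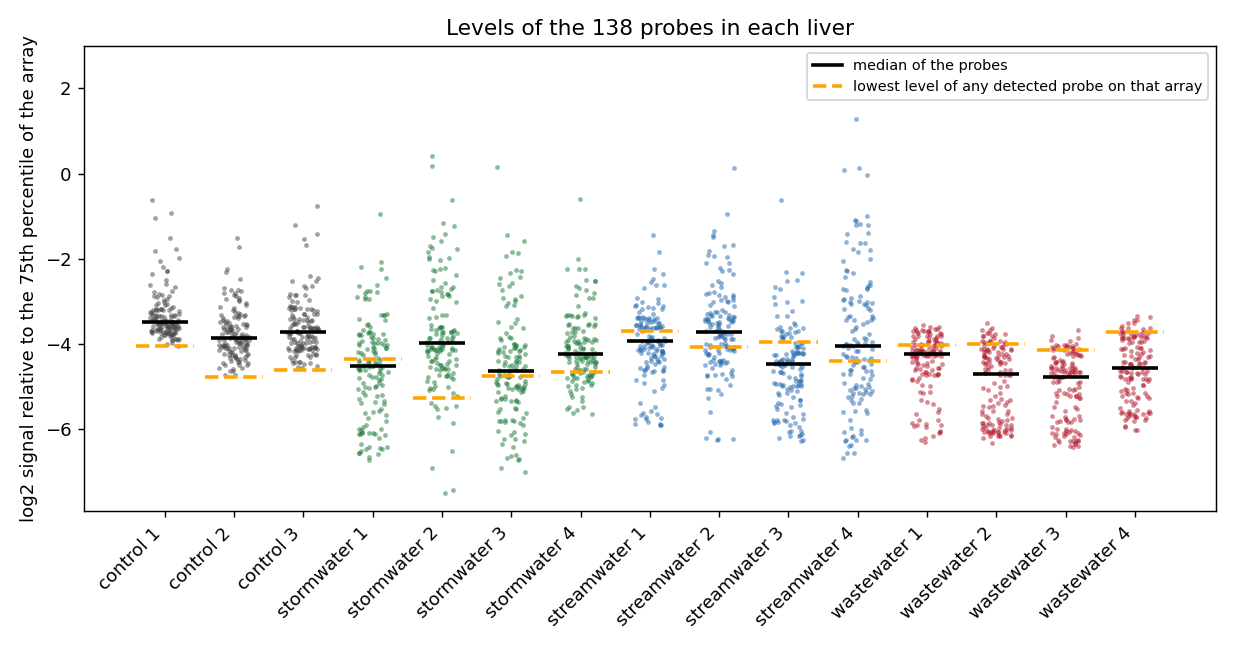
Level of each of the 138 probes (points) in each liver (horizontal axis), as log2 signal relative to the 75th percentile of the array (vertical axis). Black lines are medians of the 138 probes, from -3.48 to -3.87 in controls and -4.24 to -4.78 after wastewater. With another background correction the members' median difference of wastewater from control was 0.28, against 0.17 for all tested probes. Medians of single livers were not compared under it. Orange dashes mark the lowest level of any detected probe on the array, which is not an exact limit because detection was called on the signal before a position-dependent scaling.

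Against the controls, the members' median difference was -1.12 on the log2 scale after wastewater, -0.76 after stormwater and -0.44 after streamwater. The medians of all 11640 tested probes were -0.12, -0.21 and -0.10. With a normexp background correction the wastewater and streamwater medians of the members turned to 0.28 and 0.44. Those of all tested probes turned as well, to 0.17 and 0.22. All 138 members had a lower mean after wastewater, 124 after stormwater and 111 after streamwater. Of all tested probes, 62.2% had a lower mean after wastewater. A higher mean was found in 37.7% of all tested probes after stormwater and in 41.8% after streamwater, against 14 and 27 of the members. These contrasts share the control arrays that chose the members, so they carry no test. The normexp correction starts from the spot's median signal and its local background. Under it 31 of the 138 members had a lower mean after wastewater, where 31.5% of all tested probes had. The background subtracted at the members, taken here as the spot's median signal less its background-subtracted signal, was larger than the local one. Its median was 360, 249 and 218 intensity units in control replicates 1 to 3 and 474, 322, 246 and 251 in wastewater replicates 1 to 4, whereas local background medians lay between 53 and 63. The part of this subtraction in the members' lower levels after wastewater was not tested.

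Restricting the members to those with the weaker flag on every array of both groups left 75 for wastewater against control, with a median difference of -0.78, and all 75 were lower. For all tested probes restricted in that way the median was -0.08. Within the first slide, which holds 1 control and 2 wastewater arrays, the members' median difference was -1.14, against -0.09 for all tested probes. Within the second, with 2 control and 2 wastewater arrays, it was -1.07, against -0.15. The rule used all of these arrays, so these values describe the difference and are no check of it.

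Wastewater and control levels did not overlap, with all wastewater livers lower, for 69 of the 138 members (50%). Over all tested probes this share was 3.98%, and since the rule used these arrays nothing is read from the difference. Stormwater levels lay below all controls for 32 members (23.2%), against 7.17% of all probes, and streamwater levels for 11 members (7.97%), against 3.06%. Here the control levels had also been part of the choice. Stormwater levels lay above all controls for 3 members, UF_Ppr_AF_107114, UF_Ppr_AF_109445 and UF_Ppr_AF_115147, against 3.82% of all probes, and streamwater levels for 0, against 2.14%.

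**Figure D4:**
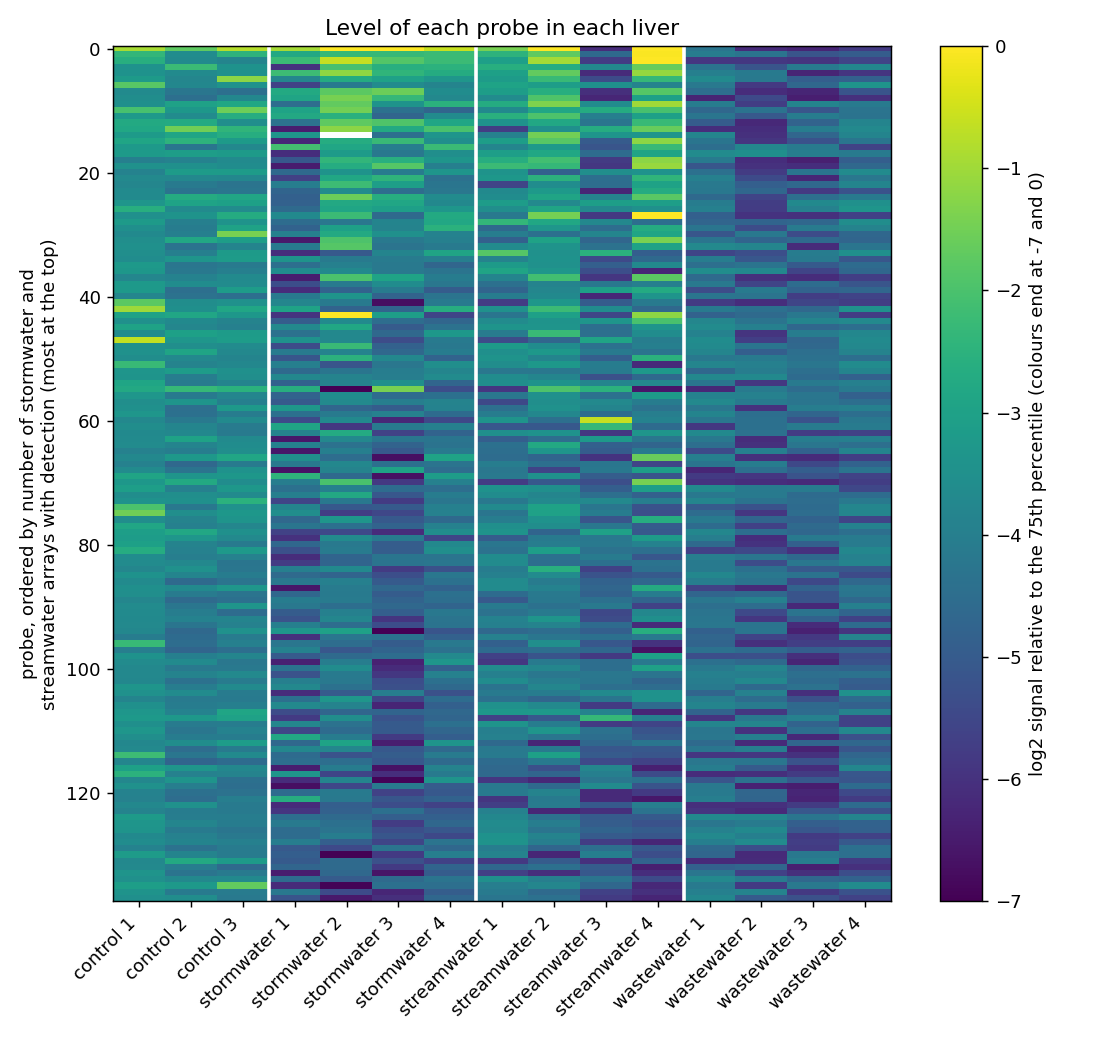
Level of each of the 138 probes (rows) in each of the 15 livers (columns), as log2 signal relative to the 75th percentile of the array, with colours ending at -7 and 0 and the single missing spot in white. Rows are ordered by the number of stormwater and streamwater arrays on which the probe was well above background, from 7 at the top to 0 at the bottom. Bright rows appear mainly in stormwater replicate 2 and streamwater replicate 4, and dark ones are scattered over all exposed livers.

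The member with the highest control level was UF_Ppr_AF_113172. Its control levels were -0.92, -1.73 and -0.77, its stormwater levels -0.95, 0.17, 0.15 and -0.59, its streamwater levels -1.45, 0.13, -6.11 and 1.28, and its wastewater levels -4.27, -6.14, -6.29 and -5.80. All wastewater livers and streamwater replicate 3 were low, and every other liver was within or above the range of the controls. Control exceeded wastewater at least 7.15-fold, where a bound compares the control mean with, for each wastewater array, whichever is higher of the signal of the probe and the lowest signal of any detected probe. Of its 4 wastewater spots 1 carried the weaker flag, so the levels of the other 3 have no order. Its dimmest control spot was at 7.73 times the limit, and it was the only member with a bound over 4-fold. Such a bound holds only for the background subtraction of the scanner software. Under normexp the log2 difference of wastewater from control was -1.97 in this probe, where it was -4.48 with the processed signal.

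The bound exceeded 1 for 110 members, 1.5 for 40 and 2 for 13, and its median was 1.21. The members named next for their bounds were also lower after wastewater under normexp, but by less. Their log2 differences from control were then -0.62 (UF_Ppr_AF_103328), -0.41 (UF_Ppr_AF_117486), -0.43 (UF_Ppr_AF_104641), -0.47 (UF_Ppr_AF_108454) and -0.49 (UF_Ppr_AF_101189). With the processed signal they ran from -2.72 to -1.70. UF_Ppr_AF_103328 was at least 3.23-fold higher in controls. Its levels were -2.82, -1.52 and -2.41 in controls, -6.45, -1.23, -2.74 and -2.0 after stormwater, -5.74, -3.50, -2.67 and -1.62 after streamwater, and -6.08, -6.08, -4.02 and -3.71 after wastewater. Stormwater and streamwater replicate 1 were as low as the wastewater livers, streamwater replicate 2 lay between, and the others were within or above the range of the controls. The weaker flag was set on 3 of its 4 stormwater, 3 of 4 streamwater and 2 of 4 wastewater spots, so its lowest levels have no order.

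UF_Ppr_AF_117486 was at least 3.21-fold higher in controls, and it carried the weaker flag in every liver. Its levels were -2.05, -3.30 and -1.54 in controls, -2.94, -1.49, -4.40 and -4.72 after stormwater, -3.67, -2.85, -2.70 and -2.05 after streamwater, and -4.67, -4.33, -5.15 and -4.30 after wastewater. Stormwater replicates 3 and 4 were as low as the wastewater livers, and streamwater overlapped the controls.

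For UF_Ppr_AF_104641 and UF_Ppr_AF_108454 a single control liver set much of the difference. UF_Ppr_AF_104641 (at least 2.81-fold) was at -0.63 in control replicate 1 and at -3.31 and -3.14 in the others, against -3.60, -5.71, -4.69 and -3.65 after wastewater. UF_Ppr_AF_108454 (at least 2.72-fold) was at -1.03 in control replicate 1 and at -3.51 and -2.85 in the others, against -4.15, -4.42, -4.64 and -3.45 after wastewater. In UF_Ppr_AF_108454 wastewater replicate 4 exceeded control replicate 2, so the levels overlapped, while in UF_Ppr_AF_104641 the groups were separate by a narrow gap. Stormwater and streamwater levels ran from -5.38 to -2.91 in UF_Ppr_AF_104641 and from -4.78 to -2.22 in UF_Ppr_AF_108454, and thus overlapped both groups.

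UF_Ppr_AF_101189 (at least 2.72-fold) had close control levels and the widest spread over the stormwater and streamwater livers, with an SD of 2.35 over 8 arrays. It was at -2.77, -2.31 and -2.52 in controls, -2.62, -7.50, -1.45 and -5.35 after stormwater, -5.90, -1.95, -2.51 and -6.57 after streamwater, and -6.22, -4.13, -4.52 and -4.11 after wastewater. Stormwater replicates 1 and 3 and streamwater replicates 2 and 3 were near or above the controls. The other 4 livers of these waters were below all controls, as the wastewater livers were. The weaker flag was set on 3 of its 4 stormwater, 2 of 4 streamwater and 3 of 4 wastewater spots. The lowest levels thus have no order, and the SD rests in part on them. The spread was next widest in UF_Ppr_AF_117490 (SD 2.27), which ran from -5.95 to 0.42 after stormwater with the highest level in replicate 2. It was smallest in UF_Ppr_AF_104836, UF_Ppr_AF_117868 and UF_Ppr_AF_107915, with SDs of 0.30, 0.33 and 0.35.

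The spread between fish differed among the groups, in the members as in all tested probes. The median SD of a member was 0.40 in controls, 0.84 after stormwater, 0.89 after streamwater and 0.70 after wastewater. All tested probes gave medians of 0.41, 0.63, 0.67 and 0.52. The SDs rest on 3 or 4 fish, and on levels without order where a spot lacked the weaker flag. Those of stormwater and streamwater include stormwater replicate 2 and streamwater replicate 4, which stood apart from the rest. The rule kept every control spot above the limit and every wastewater spot below it. The members' SDs in these groups are therefore not independent of the choice, and nothing is read from their difference.

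A group of 5 members, counted after their values were seen, shared a feature that the rule did not use. UF_Ppr_AF_113172, UF_Ppr_AF_115147, UF_Ppr_AF_109445, UF_Ppr_AF_108350 and UF_Ppr_AF_107114 were over 4-fold lower in streamwater replicate 3 than in any other stormwater or streamwater liver. That was 5 of 137 members measured on all 8 arrays (3.65%), against 1.19% of 11590 tested probes. On the other 7 arrays at most 1 member was so low.

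UF_Ppr_AF_115147 was at -2.62, -3.65 and -3.84 in controls, -2.23, -0.63, -1.86 and -2.24 after stormwater, -3.05, -0.95, -5.76 and 0.14 after streamwater, and -5.89, -5.88, -5.96 and -5.57 after wastewater. UF_Ppr_AF_109445 was at -3.44, -3.66 and -3.49 in controls, -2.19, -1.16, -2.42 and -2.68 after stormwater, -3.02, -1.69, -6.15 and -1.11 after streamwater, and -3.97, -4.12, -6.28 and -5.92 after wastewater. In both probes every stormwater liver and 3 of 4 streamwater livers exceeded the control mean, all stormwater livers exceeded every control, and all wastewater livers fell short of every control.

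UF_Ppr_AF_108350 was at -3.58, -4.44 and -3.77 in controls, -2.90, -1.42, -2.34 and -3.72 after stormwater, -3.61, -1.92, -6.26 and -3.01 after streamwater, and -6.30, -5.46, -6.40 and -6.03 after wastewater. UF_Ppr_AF_107114 was at -3.66, -4.25 and -4.45 in controls, -2.75, -1.77, -1.58 and -3.59 after stormwater, -3.11, -2.62, -6.07 and -1.85 after streamwater, and -4.50, -6.10, -6.27 and -5.18 after wastewater. The order of the groups was that of the probes above, with stormwater replicate 4 level with the controls in UF_Ppr_AF_108350. In all 5 probes the spot of streamwater replicate 3 lacked the weaker flag, so its level is a bound. Under normexp the wastewater means of UF_Ppr_AF_109445, UF_Ppr_AF_108350 and UF_Ppr_AF_107114 were 0.15, 0.15 and 0.40 above the controls, while that of UF_Ppr_AF_115147 was -0.62 from them. The median difference of all tested probes was then 0.17.

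**Figure D5:**
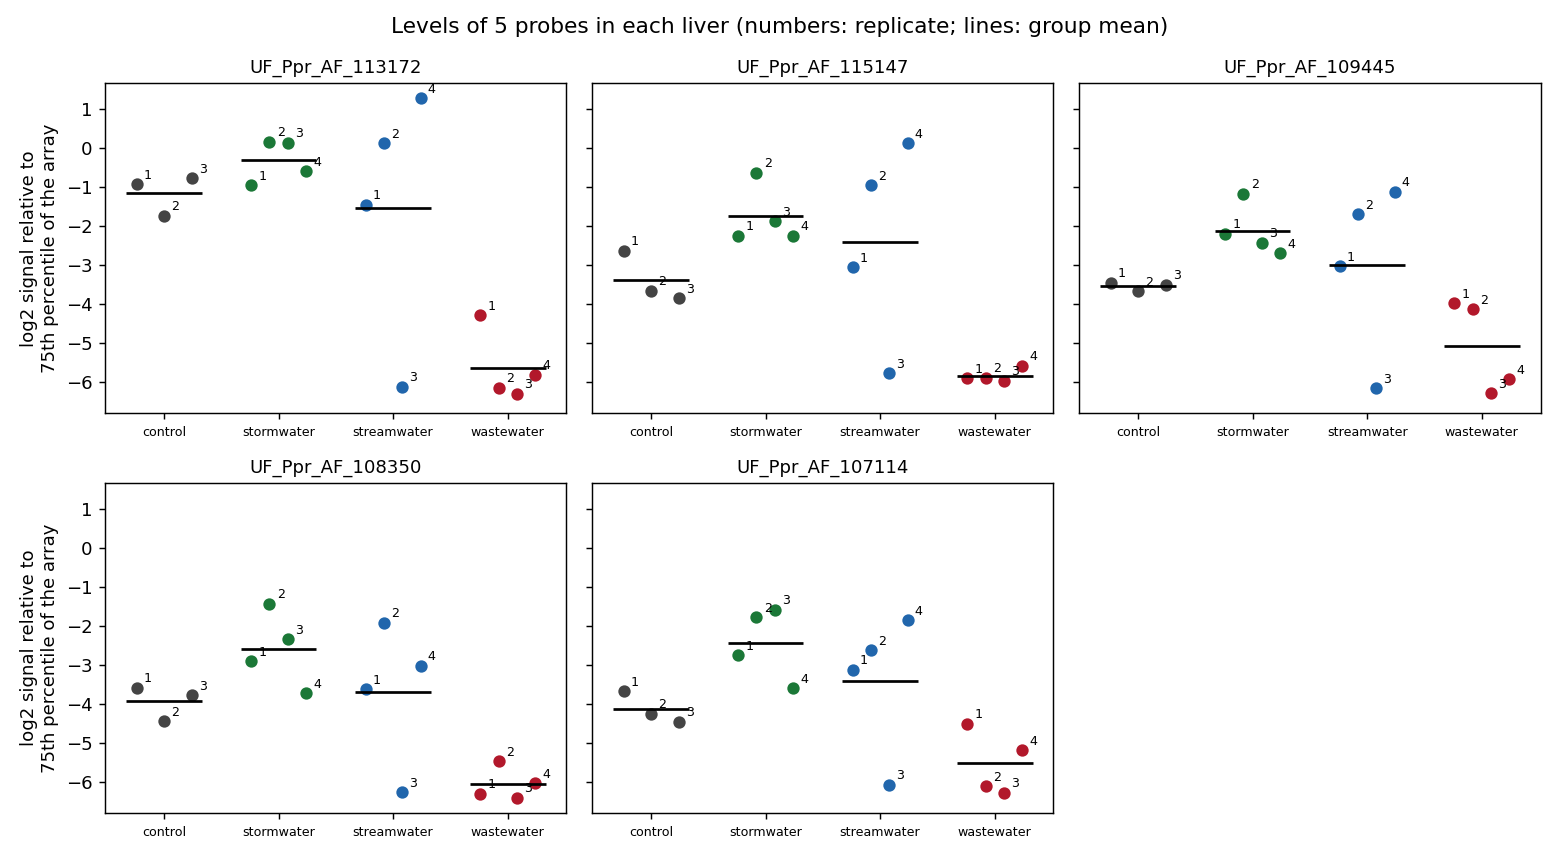
Levels of 5 probes in each liver, as log2 signal relative to the 75th percentile of the array (vertical axis), by water (horizontal axis). Points are single livers with their replicate numbers, and lines are group means. In each probe all wastewater livers and streamwater replicate 3 lie below every other liver, and streamwater replicate 3 lies between -6.26 and -5.76. The gap is narrow in 2 probes. Wastewater replicate 1 is at -4.50 in UF_Ppr_AF_107114, where the lowest control is at -4.45, and at -3.97 in UF_Ppr_AF_109445, where the lowest control is at -3.66. Under normexp the wastewater mean of 3 of the 5 lay above the control mean, by 0.15 to 0.40. The median difference of all tested probes was then 0.17, and single livers were not compared.

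The members whose levels over the 8 stormwater and streamwater arrays were most like those of UF_Ppr_AF_113172 were UF_Ppr_AF_109445 (r = 0.97), UF_Ppr_AF_115147 (0.96), UF_Ppr_AF_102202 (0.95), UF_Ppr_AF_107114 (0.94) and UF_Ppr_AF_117503 (0.89). These values are a description over 8 arrays that share the low liver of streamwater replicate 3 and the high ones of stormwater replicate 2 and streamwater replicate 4. An r over 0.9 was reached by 4 of 136 other members (2.94%) and by 151 of 11589 tested probes (1.30%).

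Stormwater was set against streamwater because the choice of members used no array of either water. The spread in limma's test was taken from all arrays, however, those of control and wastewater included. The members' standard errors, intervals and p-values are therefore not fully independent of the choice. None of the 138 members passed limma's test (0 called, and 0% of the 11640 probes tested), and the lowest adjusted p among the members was 1.00. At an unadjusted p under 0.05, 7 members differed (5.07%), of which 1 was higher and 6 were lower after stormwater, against 2.04% of all probes, 0.636% higher and 1.4% lower. With only the arrays of these waters fitted, 5 members had an unadjusted p under 0.05, all lower after stormwater, against 1.55% of all probes. In the fit over all arrays the median 95% confidence interval of a difference reached 1.18 on the log2 scale to either side. Single members had narrower or wider intervals.

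The members' median difference of stormwater from streamwater was -0.26, against -0.07 for all tested probes. Of the members, 93 of 138 were lower after stormwater and 32.6% higher, where 42.4% of all tested probes were higher. The SD of the members' array medians within a water, pooled over the waters, was 0.27, as large as that difference. It had the same sign within the first slide (-0.34, against -0.18 for all tested probes) and the second (-0.05, against -0.02). Within the second slide 74 of 138 members were lower. Among the 89 members with the weaker flag on all 8 arrays it was -0.30, against -0.07 for all probes so restricted. With quantile normalization it was -0.11 and with the deposited values -0.10, where all tested probes gave -0.01 in both. Levels and detection thus ran in opposite directions, since more members were detected after stormwater while the relative levels were lower there. This was not particular to the members. Of the tested probes not detected on every array, 57.7% were detected on more stormwater arrays and 12.5% on fewer, and the median of all tested probes was -0.07. Beside this, the detection limits were 101 to 155 intensity units after stormwater and 120 to 187 after streamwater, and the 75th percentile of the signal was 2134 to 3981 and 1504 to 2591. The part of either in the difference was not tested.

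The member of lowest p in this comparison was UF_Ppr_AF_113834. It was at -4.92, -3.65, -4.51 and -4.68 after stormwater and at -3.64, -3.41, -3.35 and -2.0 after streamwater, a difference of -1.35 (SE 0.37, limma unadjusted p = 0.00284, adjusted p = 1.00), which was -0.77 within the first slide and -1.92 within the second. It was the only member whose stormwater levels all lay below its streamwater levels (1 of 138, against 0.971% of all probes), and 0 members showed the reverse, against 0.43%. Its controls, at -3.47, -3.68 and -3.88, overlapped the streamwater and the wastewater livers, and in stormwater only replicate 2 (-3.65).

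The largest difference over all arrays was that of UF_Ppr_AF_115349, at -5.42, -3.68, -6.23 and -5.48 after stormwater and -3.37, -4.44, -0.61 and -3.89 after streamwater. The difference was -2.12 (SE 0.71, limma adjusted p = 1.00), and streamwater replicate 3 stood far above the other livers. Without it the difference was -1.30, and it was -0.64 within the first slide and -3.60 within the second. UF_Ppr_AF_110565 was at -6.10, -4.79, -4.08 and -4.96 against -4.73, -3.79, -3.03 and -2.73, a difference of -1.41 (SE 0.51). The waters overlapped in both probes. UF_Ppr_AF_105293 and UF_Ppr_AF_114888 differed by -1.30 (SE 0.56) and -1.29 (SE 0.75), with overlapping levels. Without stormwater replicate 1 these were -0.78 and -0.75, without streamwater replicate 1 the latter was -0.84, and within the second slide it turned to 0.34. In each of these 2 probes 3 of 4 stormwater spots carried the weaker flag. Stormwater replicate 1, at -6.58 and -6.10, lay in the band of levels without order.

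Among members higher after stormwater, UF_Ppr_AF_117658 had the largest difference over all arrays. It was at -2.63, -4.17, -5.13 and -4.81 after stormwater and at -5.91, -4.13, -6.18 and -6.56 after streamwater, a difference of 1.51 (SE 0.65, limma adjusted p = 1.00). Of its streamwater spots 1 carried the weaker flag, and the difference was 0.99 without stormwater replicate 1 and turned to -0.31 under normexp. UF_Ppr_AF_113172, UF_Ppr_AF_108350, UF_Ppr_AF_107114 and UF_Ppr_AF_109445 followed with differences of 1.23 (SE 1.16), 1.1 (SE 0.74), 0.99 (SE 0.77) and 0.88 (SE 0.89). Without streamwater replicate 3 these were -0.29, 0.25, 0.10 and -0.18. UF_Ppr_AF_113172, UF_Ppr_AF_107114 and UF_Ppr_AF_109445 were at 2.17, 1.51 and 1.5 without streamwater replicate 4, and UF_Ppr_AF_108350 at 1.7 without streamwater replicate 2.

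The 2 members detected on all stormwater and no streamwater arrays differed little in level. UF_Ppr_AF_103666 was at -3.77, -3.87, -4.00 and -3.62 after stormwater and at -3.61, -3.82, -5.25 and -4.61 after streamwater, a difference of 0.51 (SE 0.38). UF_Ppr_AF_115682 was at -4.17, -3.75, -4.43 and -4.31 against -4.03, -4.45, -4.26 and -5.57, a difference of 0.42 (SE 0.38). The levels of the waters overlapped in both, neither passed limma's test (adjusted p = 1.00), and both differences turned negative under normexp, to -0.66 and -0.77. That of UF_Ppr_AF_103666 was 0.20 without streamwater replicate 3, and that of UF_Ppr_AF_115682 was 0.087 without streamwater replicate 4.

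Single livers also exceeded the controls, which helped to choose the members. The level was above the highest control for 11, 38, 17 and 12 members in stormwater replicates 1 to 4, where 20.9%, 32.6%, 24.2% and 18.1% of all tested probes were, and for 25, 30, 6 and 42 members in streamwater, where 27.8%, 21.7%, 25.0% and 32.1% were. Stormwater replicate 2 and streamwater replicate 4 had the highest count of members in their water and the highest share of all probes. In stormwater the members' shares were 7.97%, 27.7%, 12.3% and 8.70%, and in streamwater 18.1%, 21.7%, 4.35% and 30.4%. A level over 4-fold above the highest control was reached by 7 members in streamwater replicate 4 (5.07%, against 2.96% of all probes), by 3 in stormwater replicate 2 (2.19%, against 2.70%) and by 1 each in stormwater replicate 3 and streamwater replicate 3 (0.72%, against 0.46% in both). Below the lowest wastewater level lay 34, 12, 31 and 8 members in stormwater, against 26.4%, 26.8%, 30.5% and 13.5% of all probes. In streamwater 4, 7, 17 and 22 members did, against 17.3%, 21.8%, 17.9% and 34.5%. These last counts include spots without the weaker flag, whose levels have no order. The band of such levels differed between arrays, with a median of -7.26 in stormwater replicate 2 and -5.65 in wastewater replicate 4. A level below the wastewater levels is therefore not read as less RNA.

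For 12 of the members the array carries a second probe with the same sequence name, and none of these second probes was a member (0 of 12). The rule did not use these probes, but they were measured in the same livers that chose the members they pair with. Their values of wastewater against control, p-values among them, are therefore not independent of that choice. Of the 12, 6 were well above background on all 15 arrays, including every wastewater array, 4 on some arrays and 2 on none. Of the 10 that were tested, 0 passed limma's test for wastewater against control (0% of all 11640 probes) and 1 reached an unadjusted p under 0.05 (2.9% of all probes). Their median difference was -0.33, against -0.71 for the members they pair with, with 7 lower and 3 higher after wastewater, where 62.2% of all tested probes were lower. Under normexp 3 were lower, where 31.5% of all probes were.

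UF_Ppr_AM_119262, which shares its sequence name with the member UF_Ppr_AF_100158, was the one below an unadjusted p of 0.05. It was at 2.80, 2.43 and 2.08 in controls and at 1.47, 1.76, 1.52 and 1.09 after wastewater, a difference of -0.97 (SE 0.43, limma unadjusted p = 0.0406, adjusted p = 1.00). All wastewater livers were below all controls. The difference in the member itself was -0.87. The same livers chose the member, so neither its difference nor the p-value of the second probe is a check of its pattern.

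Other pairs differed from each other. UF_Ppr_AM_119817, paired with UF_Ppr_AF_101741, ran from -1.34 to -0.92 in controls and from -1.30 to -0.94 after wastewater, a difference of 0.07 where its member had -0.83. UF_Ppr_AF_104395, paired with UF_Ppr_AM_119492, ran from -2.25 to -1.59 in controls and from -1.97 to -1.11 after wastewater, a difference of 0.31 where its member had -0.60. The second probe was level or higher after wastewater in these 2 pairs, with overlapping levels.

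The remaining second probes detected on every array were lower after wastewater by mean, with overlapping levels. UF_Ppr_AF_106196, UF_Ppr_AF_109765 and UF_Ppr_AF_111046 differed by -0.33, -0.51 and -0.88, and their members UF_Ppr_AM_119366, UF_Ppr_AM_120515 and UF_Ppr_AM_120516 by -1.13, -0.62 and -0.78. Of the 5 probes low in streamwater replicate 3, UF_Ppr_AF_107114 has a second probe, UF_Ppr_AM_119946. It was at -3.26 to -2.69 in controls, at -2.59, -2.76, -3.85 and -3.94 after wastewater, and at -3.83 in streamwater replicate 3, where streamwater replicate 4 was lower at -5.01. It did not show the pattern of its member, and the correlation of the pair over the 15 arrays was -0.37.

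The members were not spread evenly over the array. In the central columns of the grid (columns 21 to 62) lay 97 of the 138 (70.3%), against 51.2% of all probes and 50.5% of the 4470 probes detected on some but not all arrays. The central rows held 46.4% of the members and 50.1% of all probes. The processed signal was the background-subtracted signal times a factor that depended on position, with a median of 0.91 to 0.93 in the central and 1.07 to 1.12 in the outer columns of each array. The ratio of these medians was 0.82 to 0.86 in all 15 arrays. With each array's own limit applied to the processed signal, 137 probes met the rule, of which 96 were members, and 68.6% of the 137 lay in the central columns. The median difference of wastewater from control was -1.14 in central and -0.87 in outer members, and -0.46 and -0.29 in the probes detected on some but not all arrays. The part of position in the members' pattern was not tested further.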

How the data were processed

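Scanner files of 15 one-colour arrays hold spot intensity values and detection flags written by Agilent Feature Extraction, version 10.1.1.1 (per the file headers; 9.5 per the submitters' processing notes). The processed intensity is background-subtracted and scaled by position within the array, and not normalized between arrays, per the file headers. The authors' deposited table holds log2 values on a common level, by a method not given in the sources used here, and served as an alternative.

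Log2 of the processed signal minus the array's 75th percentile over 15208 non-control probes was computed, with outlier spots set to missing (1 spot of the members). Probes with the detection flag on 3 or more of 15 arrays (11640, all 138 members among them) were fitted with limma 3.58.1 in R 4.3.3 (group means over all 15 arrays, eBayes, two-sided, 11 residual degrees of freedom, Benjamini-Hochberg adjustment, threshold 0.05) after a test on simulated data. Members and lists were chosen with earlier results of these data known. Named members were those with the highest control means and bounds, the largest differences of stormwater from streamwater in each direction, exclusive detection in 1 of these waters, the closest distance to the limit, and the smallest and largest spread. The 5 probes low in streamwater replicate 3, second probes and position were described after their values were seen. Alternatives were quantile normalization, normexp (offset 50), the deposited values, other filters, blocks, within-slide fits and leaving out arrays. Figures used matplotlib 3.10.9.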

Additional observations from a re-analysis of the deposited data

Results flagged for a closer look

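In 112 groups of 4 livers, a single liver far from the other 3 was found 3 times, where chance alone marks about 1 group in 20. The groups covered the named members, the second probes detected on every array, and the counts, median levels and limits of each array. UF_Ppr_AF_118563 was at -6.69 in streamwater replicate 4 and between -4.66 and -4.46 in the other streamwater livers. The spot in replicate 4 lacked the weaker detection flag, so that its level is a bound.

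UF_Ppr_AF_113834 was at -4.30 in wastewater replicate 2 and between -3.81 and -3.71 in the other wastewater livers. UF_Ppr_AF_106196, the second probe of UF_Ppr_AM_119366, was at 1.68 in wastewater replicate 1 and between 2.06 and 2.11 in the others.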

How the results depend on the processing

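No member passed limma's test for stormwater against streamwater under any of 27 alternatives (0 called each time, 1 alternative leaving no member to test). Adjusted p-values of the 12 members named for this comparison ran from 0.276 to 1.00. Members with an unadjusted p under 0.05 numbered 7 (2.04% of all probes), 49 with normexp (13.7% of all), 11 within the first slide (6.38%), and 3 to 13 when 1 array was left out (1.28% to 5.88%). Leaving out stormwater replicate 1 gave 3 (1.28%), stormwater replicate 2 gave 11 (3.04%) and streamwater replicate 3 gave 13 (2.35%). The alternative that left 0 members was a filter to probes detected on all arrays of both waters. Same-numbered stormwater and streamwater livers did not deviate together (r of 0.16, -0.10, 0.37 and -0.42). With the replicate block 8 members had an unadjusted p under 0.05, 0 passed, and the median difference was -0.26.

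The members' median difference of stormwater from streamwater was -0.86 with normexp, -0.11 with quantile normalization and -0.10 with the deposited values. That of stormwater from control was -0.36 with quantile normalization, -0.47 with normexp and -0.38 with the deposited values. That of streamwater from control was -0.15 with quantile normalization and 0.44 with normexp, against 0.22 for all tested probes with normexp. That of wastewater from control was -0.71 with quantile normalization and -0.71 with the deposited values. It was 0.28 with normexp, against 0.17 for all tested probes, and -0.78 over members with the weaker flag throughout. Leaving out 1 array gave -0.39 to -0.11, -0.83 to -0.58, -0.56 to -0.32 and -1.22 to -0.96 in that order. The causes were not tested.

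Single differences of stormwater from streamwater that turned were those of UF_Ppr_AF_117658 (-0.31), UF_Ppr_AF_103666 (-0.66) and UF_Ppr_AF_115682 (-0.77) with normexp. UF_Ppr_AF_115682 also turned without both distant arrays (-0.051), UF_Ppr_AF_103666 within the first slide (-0.11) and UF_Ppr_AF_114888 within the second (0.34). UF_Ppr_AF_113172 (-0.29 to 2.17 when 1 array was left out) and UF_Ppr_AF_109445 (-0.18 to 1.5) turned without streamwater replicate 3.

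The rule gave 378 probes when 1 wastewater array might be detected and 1 with the weaker flag required to be missing on every wastewater array. With that flag used in both groups it gave 95, of which 1 was a member and 94 were other probes. Common limits gave 25 to 60 (25, 46 and 50 in intensity units, 25, 36 and 60 relative to the 75th percentile). Leaving out 1 array gave 161 to 560, with 560 without control replicate 1 and 256 without wastewater replicate 1. Signal close to background limits all of these counts.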
